A study of Homo sapiens with 15 samples.

Results

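The genes described here are the nuclear-encoded subunits of the mitochondrial respiratory chain. They were taken from the human protein-coding rows of the count table by symbol. Symbols beginning with NDUFA, NDUFB, NDUFC, NDUFS, NDUFV, UQCR, COX4, COX5, COX6, COX7, COX8 or ATP5 were kept, together with SDHA, SDHB, SDHC, SDHD and CYC1, and the NDUFAF assembly factors were left out. This gave 92 of 60649 human rows. Complex I had 38 members, complex II 4, complex III 10, complex IV 19 and complex V 21. One of them, DMAC2L, entered through its older symbol ATP5S.

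The respiratory chain sits in the inner mitochondrial membrane. Complexes I and II pass electrons from NADH and succinate to coenzyme Q, complex III passes them to cytochrome c, and complex IV passes them to oxygen. Complexes I, III and IV pump protons, and complex V, the ATP synthase, lets them flow back through a ring of c subunits to make ATP. Most subunits are encoded in the nucleus and imported, while a small core set is encoded by mitochondrial DNA. All subunits of complex II are nuclear-encoded. Cancer cells vary in how far they rely on this chain rather than on glycolysis.

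A549, a human cell line from a lung adenocarcinoma, was grown under the skin of nude mice, and RNA of 15 of the resulting tumours was sequenced. In the stress group (n = 5) mice were restrained, with 7 days before transplantation given in the labels. In the post-stress group (n = 5) restraint is given as 12 days after transplantation. In the no-stress group (n = 5) mice were not restrained. The labels do not say whether 7 and 12 days are durations or starting days, so the 2 restrained groups differ in the time of restraint and may differ in its length. All tumours came from the same line, and the labels give no age or sex of the mice. Nude mice lack mature T cells, so these hosts lacked part of the immune system in every group. Each library was made from total RNA of a whole tumour.

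Human counts per library ranged from 12877165 to 15892705. Mouse genes, which stand for host cells, took 18.57% to 24.56% of counts in stress tumours, 12.37% to 23.03% in post-stress tumours and 15.61% to 30.17% in no-stress tumours. Of 10 genes listed as markers of A549 cells, 9 averaged at least 1 CPM (counts per 1000000 human counts). Their summed level was 13600 to 16200 CPM in stress tumours, 14500 to 18100 CPM in post-stress tumours and 13900 to 18600 CPM in no-stress tumours. The exception was KRT19, at 0.202 to 0.376 CPM in stress, 0.411 to 0.631 CPM in post-stress and 0.0716 to 0.892 CPM in no-stress tumours. Human leukocyte markers summed to at most 4.57 CPM in any tumour. Human fibroblast markers summed to 103 to 160 CPM in stress tumours, 57.8 to 213 CPM in post-stress tumours and 95.1 to 192 CPM in no-stress tumours, most of it COL1A1, and endothelial markers to 9.45 to 16.1 CPM in stress, 7.34 to 24.7 CPM in post-stress and 12.3 to 19.8 CPM in no-stress tumours, nearly all PECAM1. The transplanted human cells were A549 and the host cells were mouse. These counts are thus no measure of human leukocytes, fibroblasts or endothelium. Where they come from, and their part in the results, was not tested.

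Of the 92 subunits, 79 had enough counts to be tested and 13 did not. Mean counts of the tested subunits ran from 11.7 to 10509.7 per library, with a median of 1173.4. Together the 92 genes took 0.729% ± 0.0541 of human counts in stress tumours, 0.783% ± 0.0888 in post-stress tumours and 0.775% ± 0.0453 in no-stress tumours (SD, n = 5 each). The ranges of the 3 groups overlapped.

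**Figure D1:**
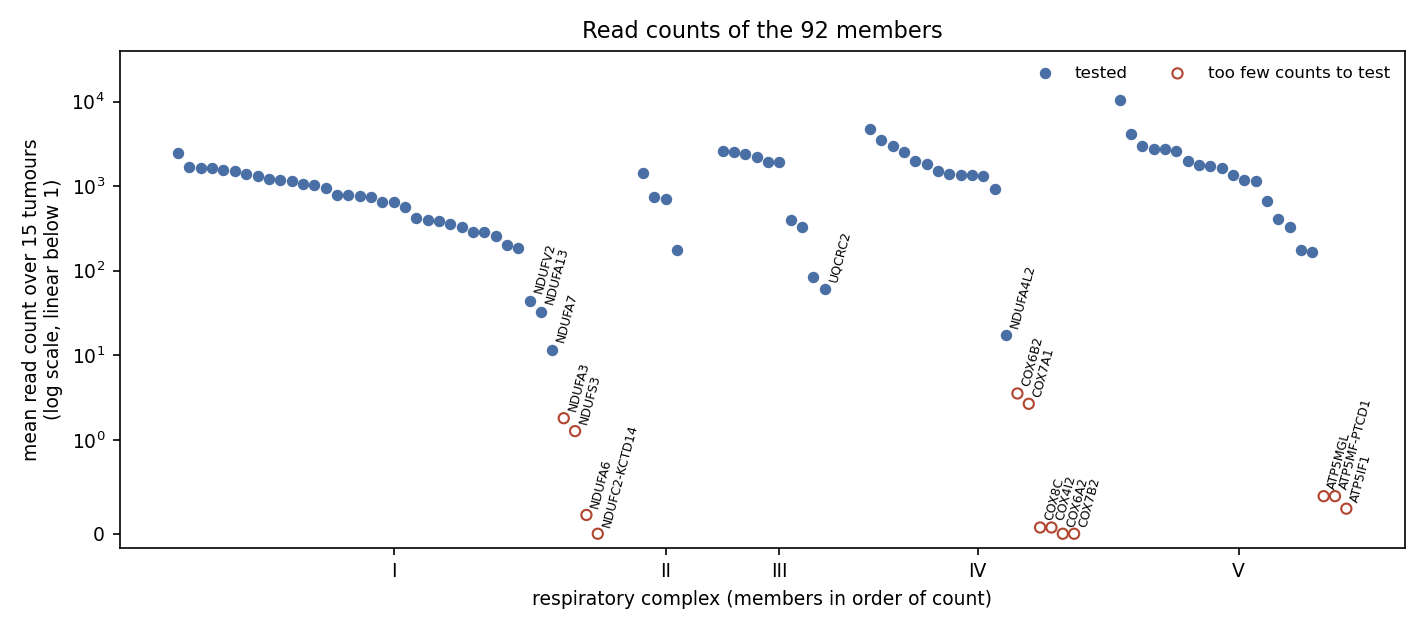
Mean read count over the 15 tumours (log scale, linear below 1) of each of the 92 members, grouped by complex and ordered by count within it. Filled points are the 79 tested members and open points the 13 with too few counts; members below 70 counts are named.

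Levels per kilobase of the principal transcript set the abundant subunits apart. ATP5F1B, the catalytic beta subunit of ATP synthase, stood first at 399 ± 42.9 CPM per kb (SD over 15 tumours). COX4I1, a regulatory subunit of complex IV, followed at 377 ± 50.8 CPM per kb, and the 2 ranges overlapped. COX5B reached 296 ± 38.6 and UQCRH, the hinge protein of complex III, 292 ± 59.9 CPM per kb, again within each other's spread. The median tested member of complex IV stood at 103 CPM per kb, that of complex V at 75.9, complex I at 47.1, complex III at 38.0 and complex II at 21.9. These medians cover 13 of 19 members of complex IV, 18 of 21 of complex V and 34 of 38 of complex I. They cover all members of complexes III and II. Members too low to test are left out, which raises the medians of complexes IV, V and I. The transcript lengths come from the GENCODE 29 annotation rather than from these tumours. Where a gene had several transcripts tagged as principal, the longest was used. SDHC, for example, had a length of 13566 bases, so its mean of 100.2 CPM became 7.38 CPM per kb. These levels and the order of the complexes carry that choice.

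Several subunits that complex I needs in every cell had almost no counts. NDUFS3, a core subunit, had 0 to 4 counts per library, NDUFA6 0 to 1 and NDUFA3 0 to 6. NDUFA7 averaged 11.7, NDUFA13 32.9 and NDUFV2, another core subunit, 44.4 counts. ATP5IF1, the inhibitor of ATP synthase, had 0 to 1 counts. In GENCODE 29, 50 of the 92 genes share exon bases with another gene and 42 do not. The shared part is 22.4% of NDUFS3 exons, 28.4% of NDUFV2 exons, 1.77% of NDUFA6 exons and 0% of ATP5IF1 exons. Whether reads of such genes were lost in counting was not tested, so their low counts are no measure of their expression.

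The tissue-specific isoforms separated clearly. COX4I2, the lung and oxygen-sensitive form of subunit 4, had 0 to 1 counts per library, against 3832 to 6625 for COX4I1. The heart and muscle form COX6A2 had 0 counts throughout, where its ubiquitous partner COX6A1 had 712 to 1133. COX7A1, also a heart and muscle form, had 0 to 6 counts, against 1009 to 1946 for COX7A2. COX6B2, the testis form, had 0 to 19 counts, against 2035 to 3492 for COX6B1. COX7B2 had 0 counts and COX8C 0 to 1, while COX7B had 1371 to 2683 and COX8A 1092 to 1665. A549 tumours in all 3 groups thus carried the ubiquitous form of each of these pairs. COX6A2 shares 46.0% and COX6B2 30.9% of its exon bases with another gene, while COX4I2, COX7A1, COX7B2 and COX8C share none. Whether reads of the low forms were lost in counting was not tested. A panel of 5 skeletal and heart muscle markers summed to at most 2.42 CPM in any tumour.

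Few subunits were called lower in stress tumours than in no-stress tumours, and by modest amounts. Of 79 tested, 3 were called lower and 0 higher at an adjusted p under 0.05 (edgeR quasi-likelihood test, Benjamini-Hochberg over 15435 human genes). Among them were ATP5MC1 of complex V and NDUFV1 of complex I. Over all tested human genes 10.5% were called in this comparison, 5.22% lower and 5.23% higher in stress tumours, so the 3.8% called among the subunits was below the background. The background itself, 1613 genes, moved with single tumours. It was 661 without no-stress tumour 1, 782 without stress tumour 1, 864 without no-stress tumour 3, 1043 without stress tumour 3, 1072 without stress tumour 5, and 1086 to 1834 without 1 of the other 10. At an unadjusted p under 0.05 there were 11 subunits, against 26.1% of all genes. The median log2 fold change of the subunits was −0.05, beside −0.01 for all tested genes.

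Most subunits were bounded tightly. For 69 of 79 the 95% confidence interval of stress against no stress lay within a 1.5-fold change in either direction, and for 76 within 2-fold. The 10 whose intervals reached past 1.5-fold were NDUFS1, NDUFV2, NDUFA13, NDUFA7, CYC1, UQCRC2, NDUFA4L2, ATP5MC1, ATP5ME and ATP5MK. An interval can pass that bound through its width or through the size of the fold. The SE of ATP5MC1 was 0.115, beside a median SE of 0.115 over the tested subunits. By sign, 51 subunits lay below 0 and 28 above. The tested members of complexes I, III and V had medians of −0.05, −0.09 and −0.07, those of complex II −0.03 and those of complex IV 0.05. In bulk tumours, fewer cells of a type and less RNA per cell cannot be told apart.

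**Figure D2:**
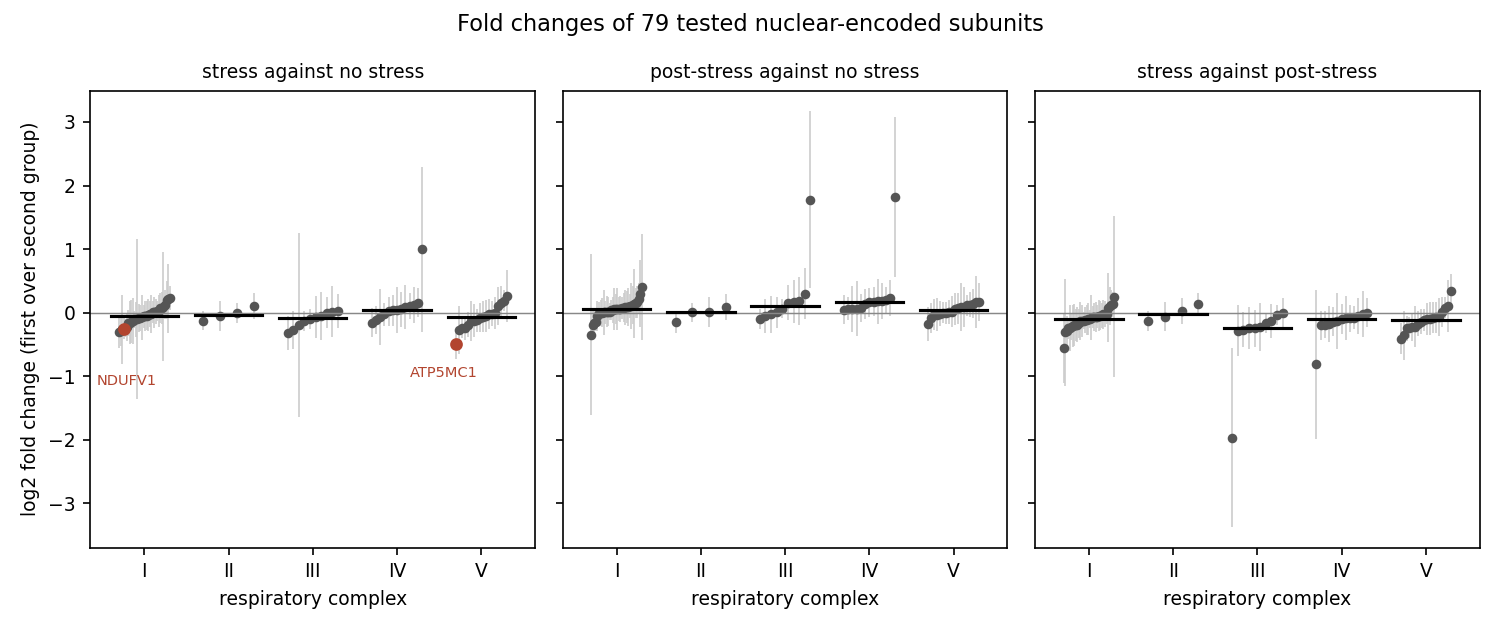
Log2 fold changes of the 79 tested subunits in the 3 comparisons (first over second group), by complex, with 95% confidence intervals as grey lines and complex medians as black bars. Red points are ATP5MC1 and NDUFV1 in stress against no stress, where both were called; no subunit was called in the other two comparisons.

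ATP5MC1 showed the largest fall among the called subunits. It encodes subunit c, which forms the rotating ring of ATP synthase. ATP5MC1, ATP5MC2 and ATP5MC3 encode the same mature protein with different import peptides. ATP5MC1 lies on chromosome 17 (hg38, 48892765 to 48895871, plus strand, GENCODE 29), and none of its exon bases are shared with another gene.

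The promoters of ATP5MC1 and NDUFV1, which were called, and of a c-ring partner that was not are shown for comparison, as the 250 bases before the RefSeq start (build GRCh38.p14), 5′ to 3′ on the strand of the gene. Capitals mark matches on either strand to CCAAT, to TGACGTC, the core of the cyclic AMP response element, to CCGGAAG, bound by ETS factors, or to GCGCATGC, the core of the NRF1 motif. The first is chr17:48892537-48892786 (plus strand), the next chr11:67606686-67606935 (plus strand), and the last chr12:53676084-53676333 (minus strand, the first of 3 entries of its gene).
ATP5MC1: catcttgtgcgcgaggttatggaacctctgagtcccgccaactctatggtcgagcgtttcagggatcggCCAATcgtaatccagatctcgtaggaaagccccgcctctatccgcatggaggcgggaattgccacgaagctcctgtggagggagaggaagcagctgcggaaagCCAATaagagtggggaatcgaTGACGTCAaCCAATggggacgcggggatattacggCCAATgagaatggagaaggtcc
NDUFV1: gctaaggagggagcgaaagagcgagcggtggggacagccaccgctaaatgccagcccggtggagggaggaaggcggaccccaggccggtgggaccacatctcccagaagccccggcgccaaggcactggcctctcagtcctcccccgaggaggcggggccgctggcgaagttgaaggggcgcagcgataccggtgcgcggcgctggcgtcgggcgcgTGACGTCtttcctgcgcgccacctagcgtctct
ATP5MC2: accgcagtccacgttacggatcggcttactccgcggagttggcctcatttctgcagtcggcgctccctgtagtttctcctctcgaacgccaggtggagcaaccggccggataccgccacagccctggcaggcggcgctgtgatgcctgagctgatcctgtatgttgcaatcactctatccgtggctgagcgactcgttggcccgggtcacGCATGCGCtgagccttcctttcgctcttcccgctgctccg
The ATP5MC1 window held 4 CCAAT matches and 1 site where TGACGTC reads on both strands, overlapping itself. The NDUFV1 window held 1 TGACGTC match, and the ATP5MC2 window 1 NRF1 core. Promoter windows from 250 bases before to 50 after the start were found for 72 of the 92 subunits, in 86 entries. The NRF1 core occurred in 17.4% of these entries and in 3.05% of all 35116 promoters of that length. For CCGGAAG the shares were 25.6% and 10.3%, for TGACGTC 8.14% and 3.45%, and for CCAAT 33.7% and 34.6%. CCAAT and TGACGTC were chosen for the search after the sequences had been read. A match is a description of letters and not of binding.

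In stress tumours ATP5MC1 stood at 84.5, 64.8, 70.3, 78.5 and 78.5 CPM. In post-stress tumours it stood at 89.6, 112.8, 123.0, 92.4 and 83.4 CPM. In no-stress tumours it stood at 124.4, 100.2, 97.6, 118.0 and 90.3 CPM. Every stress tumour lay below every no-stress tumour, while post-stress tumours overlapped both. Against no stress the log2 fold change with stress was −0.49 ± 0.11 (SE; 95% confidence interval −0.74 to −0.25), or 0.710-fold, with an edgeR adjusted p of 0.0132. ATP5MC1 was called under all 25 alternatives tried, with adjusted p between 0.00171 and 0.0487. For post-stress against no stress the log2 fold change was −0.08 (adjusted p = 0.791), and for stress against post-stress −0.41 (adjusted p = 0.162). Stress against no stress and post-stress against no stress share the no-stress tumours.

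The partner genes of the c ring are given beside it, chosen after their values were seen. ATP5MC2 averaged 184.9 ± 14.0 CPM in stress, 204.4 ± 31.2 in post-stress and 187.3 ± 11.5 in no-stress tumours (SD, n = 5 each). Its fold for stress against no stress was 0.988 (95% confidence interval 0.862 to 1.13, adjusted p = 0.931). ATP5MC3 averaged 197.4 ± 8.97 CPM in stress, 214.9 ± 26.3 in post-stress and 215.1 ± 14.7 in no-stress tumours, a fold of 0.918 for stress against no stress (0.813 to 1.04, adjusted p = 0.367). Neither was called, and both intervals still allow a modest fall.

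As a share of the CPM of the 3 c-ring genes, ATP5MC1 made up 16.4% ± 1.35 in stress tumours, 19.2% ± 0.909 in post-stress tumours and 20.8% ± 2.13 in no-stress tumours. The stress tumours all lay below the no-stress tumours, though the highest stress tumour stood at 17.61% and the lowest no-stress tumour at 17.64%. ATP5MC2 made up 40.4% in stress, 39.3% in post-stress and 36.9% in no-stress tumours, and ATP5MC3 43.2% in stress, 41.5% in post-stress and 42.3% in no-stress tumours. The 3 genes summed to 457.7 ± 16.9 CPM in stress, 519.5 ± 72.1 in post-stress and 508.4 ± 25.4 in no-stress tumours. These shares use the same counts as the call of ATP5MC1 and are no separate test.

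**Figure D3:**
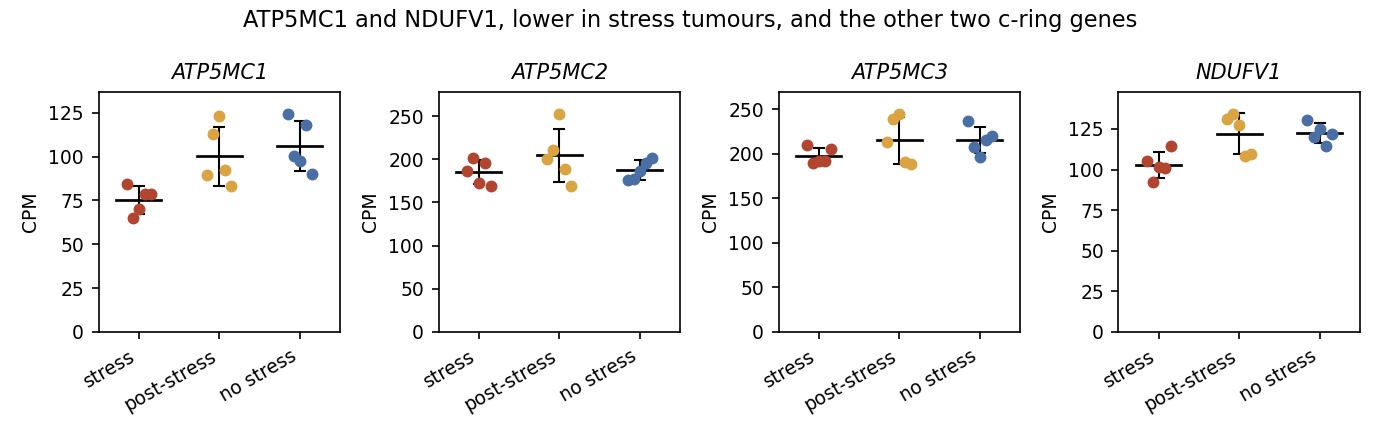
CPM of the 3 c-ring genes and of NDUFV1 in each tumour (points), with group mean and SD (n = 5). ATP5MC1 stood at 64.8 to 84.5 CPM in stress tumours, below all no-stress tumours, while ATP5MC2 and ATP5MC3 overlapped between the groups.

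NDUFV1 is a core subunit of complex I that holds the flavin taking electrons from NADH. It stood at 105.5, 92.4, 101.3, 100.8 and 114.5 CPM in stress tumours, 131.0, 134.3, 127.7, 108.1 and 109.4 CPM in post-stress tumours, and 130.6, 120.1, 124.9, 114.5 and 122.0 CPM in no-stress tumours. The highest stress tumour and the lowest no-stress tumour met at 114.5 CPM. The log2 fold change was −0.25 ± 0.08 (SE), or 0.840-fold, with an edgeR adjusted p of 0.0488, at the edge of the threshold. Leaving out 1 tumour ended this call in 13 of 15 cases, with edgeR adjusted p between 0.0504 and 0.142. It was kept only without stress tumour 5 (adjusted p = 0.0435) or post-stress tumour 3 (adjusted p = 0.0498).

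ATP5F1A and NDUFB10 had stress and no-stress groups that did not overlap, without being called. ATP5F1A, the alpha subunit of ATP synthase, averaged 258.3 ± 18.1 CPM in stress, 304.4 ± 27.1 in post-stress and 305.4 ± 18.5 in no-stress tumours (log2 fold change for stress against no stress −0.24, adjusted p = 0.0574). NDUFB10, an accessory subunit of complex I, stood at 76.5 to 88.0 CPM in stress, 83.4 to 125.3 CPM in post-stress and 90.6 to 101.5 CPM in no-stress tumours, with a log2 fold change for stress against no stress of −0.16 (adjusted p = 0.311). In all, 4 subunits had stress tumours that all lay below all no-stress tumours, ATP5MC1 among them, and 0 lay the other way round. Over all tested genes 4.7% lay all below and 4.09% all above.

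The remaining catalytic and core subunits did not pass the test in this comparison. CYC1, the cytochrome c1 of complex III, averaged 118.2 ± 16.6 CPM in stress, 142.5 ± 32.3 in post-stress and 147.8 ± 10.9 in no-stress tumours (stress against no stress 0.799-fold, adjusted p = 0.120). UQCRFS1, the Rieske iron-sulfur protein, had a fold of 0.913 (adjusted p = 0.295) and UQCRC1, a core protein, 0.932 (adjusted p = 0.405). ATP5F1B was at 672.1 ± 26.6 CPM in stress, 758.3 ± 84.2 in post-stress and 769.2 ± 82.9 in no-stress tumours (0.874-fold, adjusted p = 0.195). NDUFA9, which sits at the junction of the matrix and membrane arms of complex I, had a fold of 0.851 (adjusted p = 0.168).

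Tested members of complexes II and IV had medians of −0.03 and 0.05 for stress against no stress. None was called, as in complex III. The flavoprotein SDHA averaged 11.9 ± 1.34 CPM in stress, 12.4 ± 0.364 in post-stress and 12.3 ± 1.60 in no-stress tumours, a fold of 0.965 for stress against no stress (0.821 to 1.14, adjusted p = 0.820). The iron-sulfur subunit SDHB had a fold of 1.08 (0.934 to 1.24, adjusted p = 0.526). In complex IV, COX4I1 averaged 319.4 ± 28.8 CPM in stress, 353.3 ± 68.9 in post-stress and 314.2 ± 13.3 in no-stress tumours, a fold of 1.02 (0.869 to 1.19, adjusted p = 0.917). COX5A, an early assembly partner of COX4I1, had a fold of 0.984 (adjusted p = 0.895) and COX6C 0.954 (adjusted p = 0.873).

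Post-stress against no stress gave 0 called subunits of 79, where 0.842% of all genes, 130 in number, were called. The number over all genes was 37 without no-stress tumour 1, 45 without no-stress tumour 3, 54 without post-stress tumour 1, 51 without post-stress tumour 2 and 83 without no-stress tumour 2, and 504 with DESeq2. It was 38 with the mouse share as a covariate, 49 with only the groups compared and 57 with a replicate block. Under limma-voom and the other scalings and filters it was 103 to 177. DESeq2 and limma-voom also called 0 subunits. At an unadjusted p under 0.05 there were 3 subunits, UQCRC2 and NDUFA4L2 among them, against 15.2% of all genes. The median log2 fold change was 0.06, with 61 of 79 subunits above 0, beside −0.01 for all genes. For 72 of 79 subunits the 95% confidence interval lay within a 1.5-fold change. All 13 tested members of complex IV lay above 0, with a median of 0.16, while the medians of the other complexes were 0.06 for I, 0.01 for II, 0.11 for III and 0.03 for V.

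A single tumour carried much of this pattern. Without post-stress replicate 3, the median log2 fold change of the subunits against no stress was −0.0002. That tumour had the highest median deviation of the subunits from the mean of all 15 tumours, 0.29 on the log2 scale, and 0.51 for complex IV. Its cytosolic ribosomal proteins deviated by 0.58 and its mitochondrial ribosomal proteins by 0.24. With the mouse share as a covariate the median was 0.01. The part of RNA composition or of host cells in these values was not tested.

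**Figure D4:**
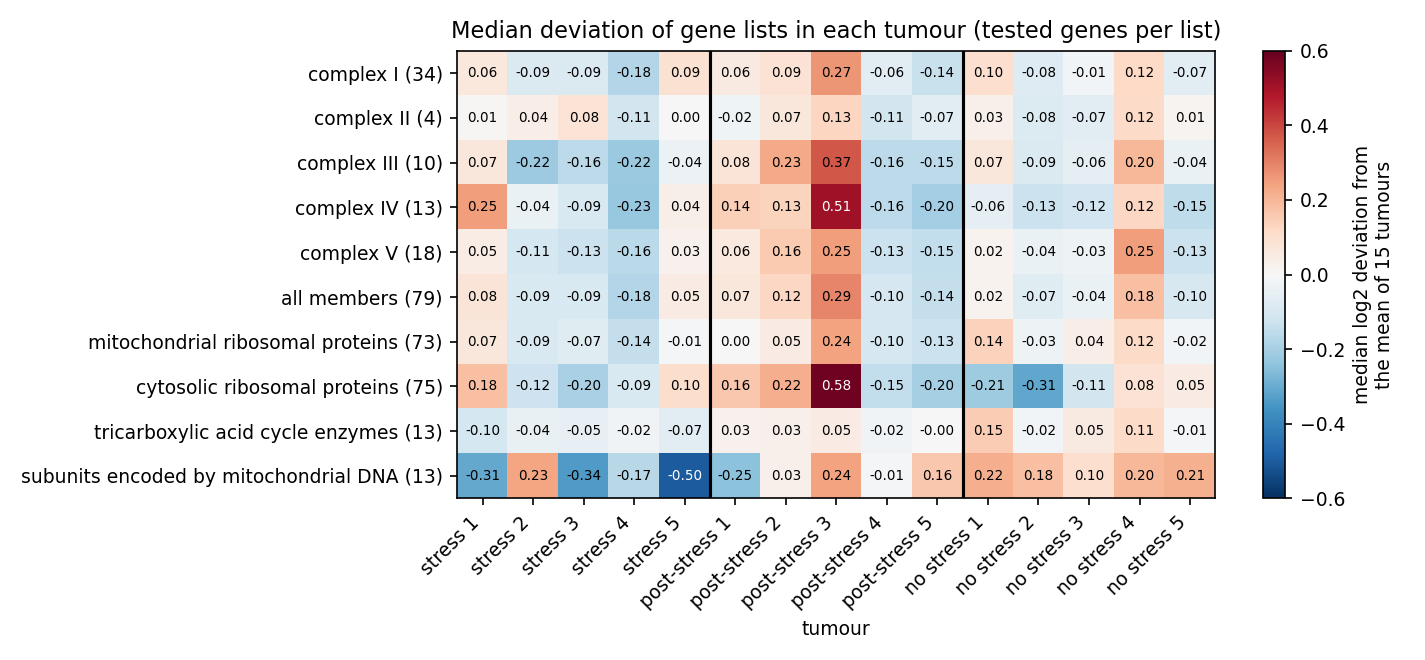
Median log2 deviation of each gene list from its mean over the 15 tumours, with 1 column per tumour and 1 row per list (number of tested genes in parentheses). Post-stress tumour 3 stands highest for all members (0.29), and stress tumour 4 lowest (−0.18).

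Stress against post-stress gave 0 called subunits, where 0.0389% of all genes, 6 in number, were called. The number over all genes was 189 without stress tumour 4, 13 without no-stress tumour 2, 1 without post-stress tumour 5, 0 without stress tumour 2, 3 or 5 or post-stress tumour 2 or 3, 4 to 9 without 1 of the other 7, and 207 with DESeq2. That number was 0 with the mouse share as a covariate or a replicate block, 1 with only the groups compared and 36 with no filter. DESeq2 and limma-voom called 0 subunits as well, and 10 subunits had an unadjusted p under 0.05, against 11.1% of all genes. The median log2 fold change was −0.11, with 68 of 79 subunits below 0, beside −0.003 for all genes. All 10 members of complex III and all 13 tested members of complex IV lay below 0, with medians of −0.24 and −0.10. Subunits share these tumours and vary together across them, as the map of deviations by tumour shows, so such counts are not separate observations.

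A few subunits differed sharply between single tumours. UQCRC2, a core protein of complex III named after its values were seen, had 298 and 215 counts in post-stress tumours 1 and 2, or 20.6 and 14.7 CPM. The other post-stress tumours had 1.47, 2.06 and 2.14 CPM. Stress tumours had 1.96, 2.02, 2.69, 2.03 and 1.76 CPM, and no-stress tumours 2.11, 1.33, 3.03, 2.36 and 3.12 CPM. Post-stress against no stress gave a fold of 3.43 with a 95% confidence interval of 1.31 to 8.99 (edgeR adjusted p = 0.213), or a log2 fold change of 1.78. Without post-stress tumour 1 the log2 fold change was 1.101, and without post-stress tumour 2 it was 1.47. UQCRC1, its partner in the core of complex III, averaged 126.4 ± 7.92 CPM in stress, 141.5 ± 12.6 in post-stress and 135.6 ± 7.18 in no-stress tumours. No exon bases of UQCRC2 are shared with another gene, and whether its reads were lost in counting was not tested. As for the low-count subunits above, its counts are thus no sure measure of its expression.

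NDUFS1, the largest core subunit of complex I, was uneven among the no-stress tumours. It stood at 20.03, 23.98, 14.0, 18.1 and 15.2 CPM in stress tumours. In post-stress tumours it stood at 3.39, 16.4, 22.9, 15.5 and 18.7 CPM. In no-stress tumours it stood at 4.78, 4.59, 37.2, 15.04 and 36.3 CPM. No-stress tumours thus held the 2 highest values and 2 of the 3 lowest, and the stress fold of 0.932 had a 95% confidence interval of 0.3899 to 2.23 (adjusted p = 0.937).

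NDUFA4L2, a hypoxia-induced relative of the complex IV subunit NDUFA4, was low throughout. It stood at 1.21, 0.488, 1.01, 2.16 and 0.706 CPM in stress tumours, 1.59, 1.92, 3.65, 2.14 and 0.570 CPM in post-stress tumours, and 0.421, 1.20, 0.0619, 0.143 and 0.967 CPM in no-stress tumours. Counts ran from 1 to 52 per library, and the groups overlapped. The fold was 2.00 for stress against no stress (adjusted p = 0.323) and 3.52 for post-stress against no stress (adjusted p = 0.158). NDUFA4 averaged 94.9 ± 15.6 CPM in stress, 100.9 ± 26.6 in post-stress and 89.4 ± 15.3 in no-stress tumours.

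**Figure D5:**
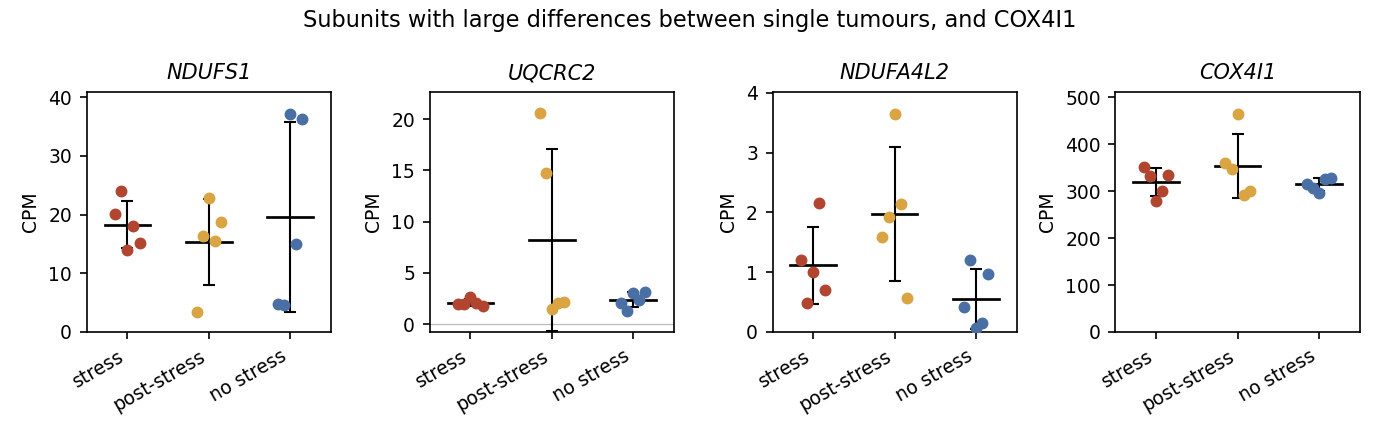
CPM of NDUFS1, UQCRC2, NDUFA4L2 and COX4I1 in each tumour (points), with group mean and SD (n = 5). UQCRC2 was high in 2 post-stress tumours, at 20.6 and 14.7 CPM, and NDUFS1 ran from 4.59 to 37.2 CPM among no-stress tumours; the SD bar of UQCRC2 in the post-stress group reaches below 0.

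Subunits encoded by mitochondrial DNA are the partners of these proteins in complexes I, III, IV and V. For stress against no stress 5 of 13 were called lower, where 5.22% of all tested genes were called lower. All 13 had a log2 fold change below 0, and 8 had an unadjusted p under 0.05. The median log2 fold change of the 13 was −0.38. Their median deviation was −0.31, −0.34, −0.17 and −0.50 in stress tumours 1, 3, 4 and 5, but 0.23 in stress tumour 2, above every no-stress tumour. The difference between nuclear-encoded and mitochondrial-encoded subunits was not tested. For post-stress against no stress edgeR called 0 of these 13 (median −0.13), as did DESeq2 and limma-voom, and 2 had an unadjusted p under 0.05.

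Genes that build or feed the chain gave mixed counts for stress against no stress. In this comparison 5.22% of all tested genes were called lower and 5.23% higher. Of 16 complex I assembly factors, edgeR called 0, with a median log2 fold change of −0.11 and 3 at an unadjusted p under 0.05. DESeq2 called 1 of them and limma-voom 0. Of 36 tested assembly factors of complexes II to V, 4 were called lower and 1 was called higher. The lower ones were COA7 (0.726-fold, adjusted p = 0.00466), a complex IV assembly factor, SCO1 (0.786-fold, adjusted p = 0.0180), a copper chaperone of complex IV, and LYRM7 (0.720-fold, adjusted p = 0.0340) and BCS1L (0.754-fold, adjusted p = 0.0410), both of which place the Rieske protein in complex III. HIGD1A, which binds complex IV and is induced by hypoxia, was higher (1.25-fold, adjusted p = 0.0196).

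Among 17 tested carriers and coenzyme Q genes, 2 were called lower with stress and 0 higher, beside 5.22% and 5.23% of all tested genes. The 2 lower genes were the phosphate carrier SLC25A3 (0.817-fold, adjusted p = 0.0473) and PDSS1, which makes the coenzyme Q tail (0.613-fold, adjusted p = 0.0387). COQ8B, a coenzyme Q biosynthesis protein, was the 1 gene of this list called for post-stress against no stress (1.27-fold, adjusted p = 0.0337). In that comparison 0.842% of all tested genes were called. CYCS, cytochrome c, had a stress fold of 0.865 (adjusted p = 0.186). Of 13 tricarboxylic acid cycle enzymes besides complex II, 1 was called lower, fumarate hydratase FH (0.755-fold, adjusted p = 0.00784).

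Of 13 tested regulators of mitochondrial biogenesis, edgeR called 0 in either comparison with no stress. At an unadjusted p under 0.05 there were 3 with stress and 2 with post-stress, DESeq2 called 1 with stress and 0 with post-stress, and limma-voom called 0 in both. TFAM, which packages and transcribes mitochondrial DNA, had a stress fold of 0.862 (adjusted p = 0.0894) and NRF1, a transcription factor of respiratory genes, 0.984 (adjusted p = 0.923). The protease LONP1 had a fold of 0.922 (adjusted p = 0.374) and CHCHD2 1.02 (adjusted p = 0.883). PPARGC1A, a coactivator of biogenesis, was too low to test, at 0.709 CPM in stress, 0.534 in post-stress and 0.369 in no-stress tumours.

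Of 7 tested oxygen-dependent genes, not all of them mitochondrial, 4 were called higher with stress and 0 lower. In this comparison 5.23% of all tested genes were called higher. HILPDA, a lipid-droplet protein induced by hypoxia, had a stress fold of 3.42 (adjusted p = 0.00287), BNIP3, a mitophagy receptor, 1.88 (adjusted p = 0.00736), PDK1, which holds back pyruvate dehydrogenase, 1.60 (adjusted p = 0.0446), and HIGD1A is given above. For post-stress against no stress BNIP3 (1.79-fold, adjusted p = 0.0436) and HILPDA (2.33-fold, adjusted p = 0.0491) were called by edgeR and by DESeq2, and limma-voom did not call HILPDA. In that comparison edgeR called 0.842% of all tested genes. CA9, another hypoxia-induced gene, had folds of 1.27 with stress (adjusted p = 0.634) and 1.24 with post-stress (adjusted p = 0.778). The list also holds NDUFA4L2, COX4I2 and LONP1.

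Ribosomal protein genes, which like the subunits are short and abundant, are given for scale. Where 5.22% of all tested genes were called lower with stress, 5 of 73 tested mitochondrial ribosomal proteins were (median −0.08). Of 75 cytosolic ones, edgeR, DESeq2 and limma-voom called 0 with stress, where the median log2 fold change was 0.08, and 0 with post-stress, where it was 0.26. At an unadjusted p under 0.05 there were 2 with stress and 11 with post-stress.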

How the data were processed

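RNA-seq of 15 A549 tumours was analysed, 5 per group. The deposited table holds raw read counts per gene. Per the submitters' processing notes, the authors used Trimmomatic (0.39), HISAT2 (2.2.1), featureCounts (2.0.6) and the builds hg38 and mm10; DESeq2 and edgeR are also named there. Not given in the sources used here are the annotation release, the strand setting and how reads fitting both genomes were assigned, so overlapping genes, antisense partners and near-identical copies are uncertain.

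Symbols were found for 60463 of 60649 human rows, and gene types, lengths and overlaps came from GENCODE 29. Counts of human genes were filtered with filterByExpr, scaled with TMM and fitted with edgeR's quasi-likelihood test (edgeR 4.0.16, R 4.3.3) over all 15 libraries, with Benjamini-Hochberg adjustment over 15435 genes. The SE is the size of the log2 fold change divided by the square root of F. CPM are TMM-scaled within human genes, and deviations by tumour use log2(CPM + 0.1). The fit was tested on simulated data. Alternatives were DESeq2 size factors, upper-quartile scaling, DESeq2 (1.42.0), limma-voom (limma 3.58.1), no filter, at least 1 CPM in 5 libraries, only the groups compared, a block for replicate number, a covariate for the mouse share, leaving out each library and, chosen after seeing the data, leaving out no-stress replicates 1 and 5 together.

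The members and lists were chosen with earlier results of these data known. Named by rule were all called members (1 is not reported here), isoform pairs, core members of each complex, up to 4 called genes per other list by smallest p, and a few regulators; UQCRC2, ATP5MC2, ATP5MC3 and NDUFB10 were named after their values were seen. Lists overlap in HIGD1A, LONP1, DMAC2L, NDUFA4L2 and COX4I2. P-values measure the spread between these tumours. Nothing in the labels ties replicate numbers to a cage or day.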

Additional observations from a re-analysis of the deposited data

Results flagged for a closer look

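Groups of 5 tumours were examined for the named genes and for the shares of human counts of all members and of each complex. In 5 of these 93 groups, 1 tumour lay far from the other 4, a share near the 1 in 20 that chance gives. All 5 were groups of single genes. The shares hold counts of the same genes, so the 93 are not separate observations. No-stress replicate 4 had 115.4 CPM of NDUFA4, against 77.9 to 88.4 CPM in the other no-stress tumours. The same tumour had 127.9 CPM of COX6C, against 79.6 to 84.6 CPM in the others. No-stress replicate 5 had 83.8 CPM of COX8A, against 102.2 to 108.3 CPM. No-stress replicate 3 had 41.4 CPM of SDHB, against 47.7 to 50.1 CPM. Stress replicate 3 had 2.69 CPM of UQCRC2, against 1.76 to 2.03 CPM in the other stress tumours.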

How the results depend on the processing

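For stress against no stress, the 3 called subunits became 1 with no filter on low counts, 1 with a replicate block and 1 without no-stress replicates 1 and 5 together. Leaving out 1 tumour gave 1 to 4 called subunits, with 1 left without stress replicate 1, stress replicate 2, no-stress replicate 1 or no-stress replicate 3. ATP5MC1 was called throughout. NDUFV1 was lost in 7 of 10 settings other than leaving out 1 tumour, with adjusted p up to 0.202. ATP5F1A was called by DESeq2 (adjusted p = 0.0227), with the mouse share as a covariate (0.0346) and without post-stress replicate 3 (0.0462). Of the genes named from the other lists, COA7, FH, HILPDA and BNIP3 kept their stress calls under all 25 alternatives. SCO1, LYRM7, BCS1L, HIGD1A, SLC25A3, PDSS1 and PDK1 lost theirs when some single tumours were left out, with adjusted p up to 0.0607, 0.0897, 0.111, 0.0528, 0.120, 0.116 and 0.105. The post-stress calls of COQ8B, HILPDA and BNIP3 were lost likewise (up to 0.0968, 0.146 and 0.124). In the other two comparisons 0 subunits were called under all 25 alternatives.

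Same-numbered tumours did not deviate together (r of −0.191 to 0.124 over 15 pairs), so the numbers were not taken to pair samples. The median log2 fold change of the subunits for stress against no stress was −0.07 to 0.004 when 1 tumour was left out, and above 0 only without stress replicate 4 or no-stress replicate 4. For post-stress against no stress this range was −0.0002 to 0.11, and for stress against post-stress −0.16 to −0.05. The cause of these shifts was not tested. Subunits with few counts, such as NDUFA4L2, NDUFA7 and UQCRC2, have wide intervals.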
